A study of Papio anubis and Macaca mulatta with 6 samples.

Results

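The gonadal transcription factors examined were SOX8, SOX9, WT1, NR5A1, NR0B1, GATA4, GATA6, EMX2, LHX9 and CITED1, which act in the supporting cells of the gonad or in the tissue that forms it. They were found by symbol: 9 of 34178 genes in the baboon, where SOX8 was not analysed here, and all 10 of 21356 genes in the macaque. Single cells were prepared from the testes of 2 olive baboons and 2 rhesus macaques, taken at necropsy of animals euthanized for another purpose. The published methods name no treatment of them. Baboon 1 gave libraries 1A and 1B, baboon 2 gave library 2, rhesus 1 gave library 1 and rhesus 2 gave libraries 2A and 2B, so that each species had 3 libraries of 2 animals and no library pooled animals. All were made with 10x Genomics 3′ chemistry (version 3 for baboon 2 and version 2 for the others) with a target of 5000 cells each. The tissue was digested with enzymes in steps with a wash meant to remove interstitial cells, so shares of cell classes do not give their shares in the tissue. All animals were immature, but the series record and the published methods give the same age pairs to opposite species, and ages were therefore not used.

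Sertoli cells are the somatic cells that enclose the germ cells in the seminiferous cords, and they arise from a supporting cell lineage of the early gonad. WT1, GATA4, NR5A1, LHX9 and EMX2 are needed for the gonad to form. SOX9 then drives the Sertoli fate with SOX8 beside it, and NR5A1, GATA4 and WT1 act with SOX9 on genes such as AMH.

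The libraries held 5557 to 11163 called cells with a median of 1445 to 2740 unique molecular identifiers (UMIs, each standing for 1 captured transcript molecule). Cells were put into classes from the UMIs of marker lists that hold none of the genes examined, and a class is called after its list with the ending "-like". In the baboon there were 10781 Sertoli-like, 5349 stroma-like, 281 endothelial-like, 214 germ-like, 116 pericyte-like, 69 peritubular myoid-like, 67 lymphoid-like and 60 macrophage-like cells, and 6108 cells (26.5%) were not assigned. The macaque gave 15363 stroma-like, 5681 Sertoli-like, 644 endothelial-like, 626 Leydig-like, 296 pericyte-like, 295 germ-like, 209 macrophage-like, 177 peritubular myoid-like and 69 lymphoid-like cells, and 3106 (11.7%) were not assigned. The baboon had too few Leydig marker cells for a class, and only 5 of the 8 Leydig markers were found by symbol there. AMH and INHA, which are on no marker list, were among the 10 leading genes of the Sertoli-like class in both species. INHBB was among them too, but it is on the Sertoli list that defined the class. HSD17B3, a gene of the Leydig list, was also among them in the baboon. Genes without symbols were prominent among the 10 leading genes of the germ-like class, which held 0 of its list markers in the baboon and 1 (SOHLH1) in the macaque. Baboon pericyte-like cells also held 2050 to 3300 CPM (UMIs per 1000000 UMIs of the class) of the endothelial list. Cell barcodes shared between libraries of the same chemistry were close in number to those that random barcodes would give, with the largest gap between libraries 2A and 2B (109 against 79.3).

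Every level is in CPM, here the UMIs of a gene per 1000000 UMIs of a cell class. Levels were compared within a species between classes, and not between genes or between species, since the gene annotations differ. Free RNA, measured in barcodes that rank far below the cells by UMIs, is given as the background that all cells could share. The Sertoli marker list reached 1110 to 1600 CPM in baboon Sertoli-like cells, 296 to 415 in stroma-like and 231 to 272 in germ-like cells. The same list reached 2580 to 3260 in Sertoli-like cells of the macaque, 658 to 1260 in its endothelial-like and 492 to 559 in its stroma-like cells. How much of a low level came from other cells was not tested.

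SOX9, the factor that establishes and maintains Sertoli cell identity, was highest in Sertoli-like cells in every library. It lies on chromosome 17 of Panubis1.0 (63956200 to 63961368) in the baboon and on chromosome 16 of Mmul_10 (68419778 to 68422778) in the macaque. In the baboon, SOX9 made up 391, 397 and 268 CPM of Sertoli-like cells in libraries 1A, 1B and 2, or 331 ± 88.4 (SD, n = 2 animals). In baboon stroma-like cells SOX9 was at 83.1, 69.6 and 60.4 CPM, in germ-like cells at 74.8, 117 and 71.8, and in endothelial-like cells at 21.0, 22.4 and 15.6. The Sertoli-like values therefore did not overlap those of any other class, of which macrophage-like cells had the highest (165 in library 1A), and free RNA held 203, 122 and 105. SOX9 was 5.03-fold and 4.44-fold higher in Sertoli-like than in stroma-like cells of baboons 1 and 2, with a fitted log2 difference of 2.24 (SE 0.46, adjusted p = 0.00242). Against endothelial-like cells the log2 difference was 4.15 (SE 0.56, adjusted p = 3.48e-05) and against germ-like cells 2.19 (SE 0.47, adjusted p = 0.00147).

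The SOX9 difference between baboon Sertoli-like and stroma-like cells depended on the cells kept. Marked doublets were 13.3% of the stroma-like cells, and without them SOX9 in stroma-like cells was 34.5 and 27.1 CPM in baboons 1 and 2 and the log2 difference was 3.35 (adjusted p = 9.29e-06). When cells were taken by a UMI cutoff alone, only 285 stroma-like cells of baboon 2 were left of 3581, SOX9 in them was at 180 CPM, and the call was lost (log2 difference 1.19, adjusted p = 0.0708). In that setting WT1 (0.81, adjusted p = 0.253) and GATA6 (0.99, adjusted p = 0.282) lost their calls as well.

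Rhesus SOX9 made up 393, 803 and 863 CPM of Sertoli-like cells in libraries 1, 2A and 2B (613 ± 310.4 SD, n = 2 animals). Stroma-like cells held 37.6, 36.8 and 34.2, germ-like cells 70.0, 66.7 and 93.7, Leydig-like cells 36.7, 15.4 and 10.2, and free RNA 109, 233 and 268. No value of another class reached those of Sertoli-like cells, the next highest being 101 in peritubular myoid-like cells of library 2B. The log2 difference from stroma-like cells was 3.89 (SE 0.51, adjusted p = 0.00015), with a 10.5-fold higher level in rhesus 1 and a 23.4-fold higher level in rhesus 2. The level in Sertoli-like cells of rhesus 2 was 2.12 times that of rhesus 1, whereas stroma-like cells of both animals were alike in level (37.6 and 35.6). With 2 animals this difference between animals could not be tested.

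**Figure D1:**
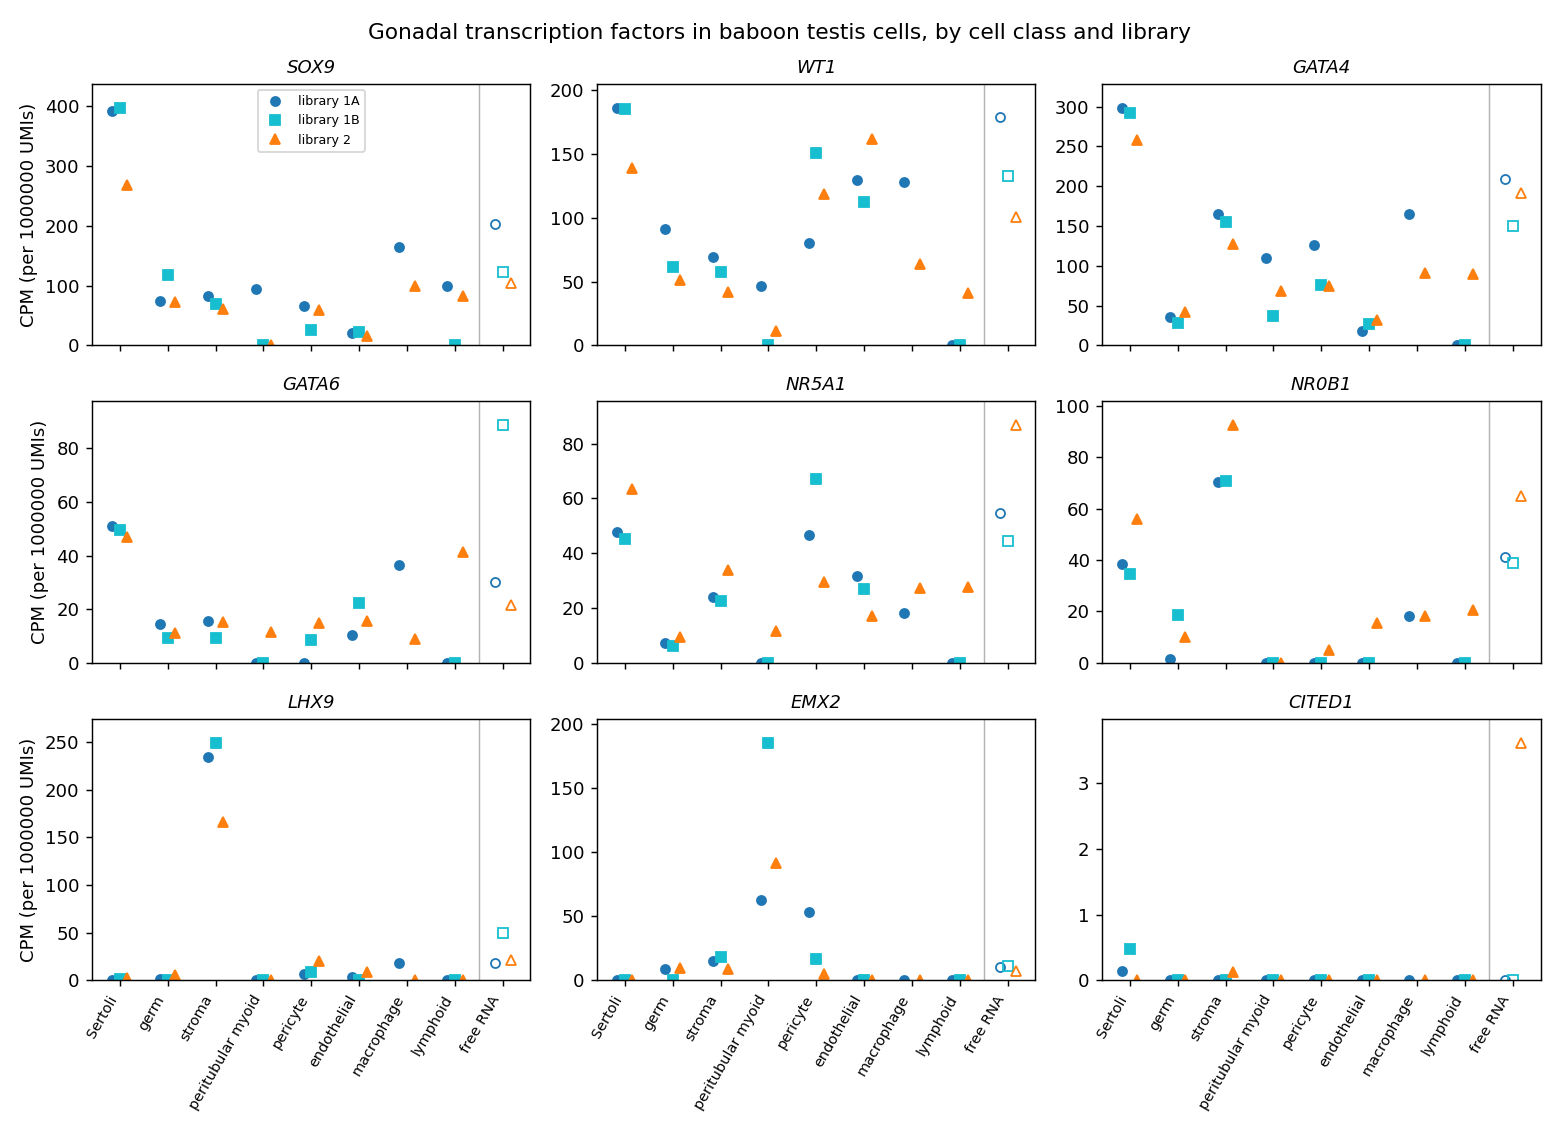
CPM of each gene (vertical axes, linear, 1 panel per gene) in each baboon cell class and in free RNA (horizontal axis), with 1 point per library; a library with under 10 cells of a class is not drawn. SOX9, GATA4 and GATA6 were highest in Sertoli-like cells, LHX9 in stroma-like cells and EMX2 in peritubular myoid-like cells, and WT1 in endothelial-like cells (112 to 161) came close to Sertoli-like cells (139 to 186).

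SOX8, a relative of SOX9 that supports Sertoli cell function, was measured in the macaque alone (chromosome 20, 990391 to 995600), and there it did not follow SOX9. Sertoli-like cells held 1.95, 1.16 and 0.616 CPM in libraries 1, 2A and 2B. Stroma-like cells held 24.4, 9.38 and 9.38 and germ-like cells 10.7, 10.0 and 13.4, so the Sertoli-like values lay below both. Free RNA held 6.37, 3.02 and 6.42. SOX8 in stroma-like cells was 12.5 times and 10.5 times its level in Sertoli-like cells of rhesus 1 and 2. It did not pass the filter on low counts, and without that filter its log2 difference was -3.62 (adjusted p = 2.92e-05). In rhesus 1 the stroma-like level of SOX8 was 2.6 times that of rhesus 2.

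CITED1, a coactivator without a DNA-binding domain, was abundant in the macaque. Few of its UMIs were found in the baboon, but the gene annotations differ, so this is not read as a difference in expression between the species. Rhesus Sertoli-like cells held 394, 1630 and 1660 CPM of CITED1 (chromosome X, 69375804 to 69381353) in libraries 1, 2A and 2B. Stroma-like cells held 86.3, 114 and 119, germ-like cells 45.7, 46.7 and 35.7, and macrophage-like cells 135, 132 and 247. All 3 Sertoli-like values were above every other class, and the level in rhesus 2 was 4.18 times that in rhesus 1. Free RNA of rhesus 2 was also rich in CITED1 (1130 and 1120, against 286 in rhesus 1), and what part of the other classes' levels it made was not tested. CITED1 was higher in Sertoli-like than in stroma-like cells by 3.11 on the log2 scale (SE 0.45, adjusted p = 0.000292), and the value from a single animal ranged from 2.22 without rhesus 2 to 3.57 without rhesus 1. In baboon Sertoli-like cells CITED1 (chromosome X, 79358721 to 79364289 of Panubis1.0) was found with 2, 4 and 0 UMIs in libraries 1A, 1B and 2. Only 1 more UMI was found in the other classes, in stroma-like cells of baboon 2.

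WT1, a zinc-finger factor needed for the genital ridge and later for the Sertoli cell, stood at close levels in baboon Sertoli-like and endothelial-like cells. It lies on chromosome 12 (91740114 to 91788721) in the baboon. Sertoli-like cells held 186, 185 and 139 CPM in libraries 1A, 1B and 2 (162 ± 33.3 SD, n = 2 animals), and stroma-like cells 69.3, 57.4 and 42.2. Endothelial-like cells held 130, 112 and 161 and pericyte-like cells 80.0, 151 and 119, so both overlapped the Sertoli-like range. Free RNA held 179, 133 and 101, above stroma-like cells in every library and above endothelial-like cells in 1A and 1B. What part of the class levels it made was not tested. WT1 was higher in Sertoli-like than in stroma-like cells by 1.58 on the log2 scale (SE 0.42, adjusted p = 0.0146) and than in germ-like cells by 1.43 (SE 0.43, adjusted p = 0.0134). Between Sertoli-like and endothelial-like cells WT1 differed by 0.18 (SE 0.42, adjusted p = 0.834), and in baboon 2 alone the endothelial-like level was the higher one (161 against 139).

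Other Sertoli transcripts were lower in baboon endothelial-like than in Sertoli-like cells. The Sertoli list of endothelial-like cells stood at 181 to 235 CPM, against 1110 to 1600 in Sertoli-like cells. SOX9 was lower in endothelial-like cells than in any of the other classes with a SOX9 UMI in all libraries. Of the UMIs of WT1 and SOX9 together, WT1 made 86.0% in endothelial-like cells of library 1A (exact 95% interval 72.1% to 94.7%), 83.3% in 1B (65.3% to 94.4%) and 91.2% in library 2 (84.8% to 95.5%). In Sertoli-like cells WT1 made 32.2%, 31.9% and 34.1% of them, and in free RNA 46.8%, 52.2% and 49.1%. Pericyte-like cells were also WT1-rich by this share (54.5%, 85.7% and 66.7%, on 12, 18 and 24 WT1 UMIs), and in library 1B they exceeded endothelial-like cells. They also held 2050 to 3300 CPM of the endothelial list, and only 24.1% of them fell in the same class by clusters. The part of endothelial transcripts in their WT1 was not tested. The intervals of endothelial-like cells lay above those of Sertoli-like cells in all 3 libraries and above those of free RNA in libraries 1A and 2. Without marked doublets WT1 in endothelial-like cells was 125 and 173 CPM in baboons 1 and 2. The share of WT1 was chosen after the levels had been seen, and its intervals cover counting error only. What part free RNA or other cells had in the WT1 of endothelial-like cells was not tested.

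Rhesus WT1 (chromosome 14, 32991866 to 33040624) was low. Sertoli-like cells held 4.55, 12.1 and 13.6 CPM in libraries 1, 2A and 2B, stroma-like cells 0.783, 2.01 and 1.47, and endothelial-like cells 20.7, 19.4 and 8.08. The endothelial-like values lay above the Sertoli-like ones in libraries 1 and 2A and below in 2B, and rested on 4, 22 and 8 UMIs. Free RNA held 1.27, 9.05 and 4.99 CPM, on 4, 12 and 7 UMIs. WT1 made 57.1%, 41.5% and 27.6% of the UMIs of WT1 and SOX9 in endothelial-like cells, 1.15%, 1.49% and 1.55% in Sertoli-like cells and 1.16%, 3.74% and 1.83% in free RNA. In all 3 libraries the endothelial-like interval (lowest bounds 18.4%, 28.1% and 12.7%) lay above that of free RNA (highest bounds 2.93%, 6.44% and 3.73%). Here too the share was chosen after the levels had been seen, and its intervals cover counting error only. In library 1 it rested on 4 WT1 and 3 SOX9 UMIs. What part free RNA had in it was not tested. The endothelial-like cells also held 658 to 1260 CPM of the Sertoli list, and PRND, a gene of that list, was among the 10 leading genes of the class. The part of Sertoli transcripts in this result was not tested. WT1 did not pass the filter on low counts in this species. Without that filter it was higher in Sertoli-like than in stroma-like cells by 2.56 on the log2 scale (adjusted p = 0.0122).

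**Figure D2:**
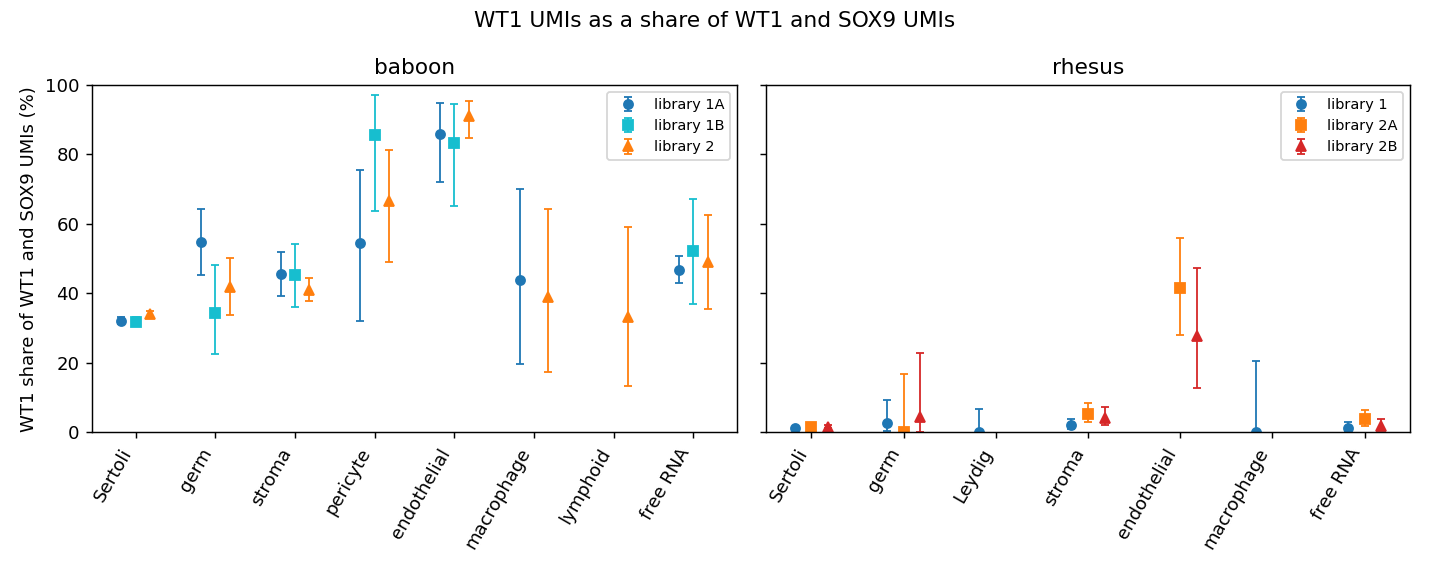
Share of WT1 among the UMIs of WT1 and SOX9 together (vertical axis, percent) in cell classes and free RNA (horizontal axis), 1 point per library with its exact 95% interval, drawn where there were enough UMIs of the 2 genes. In the baboon, endothelial-like cells held 83.3% to 91.2%, against 31.9% to 34.1% in Sertoli-like cells. Of the points drawn they stood highest in libraries 1A and 2, and pericyte-like cells stood highest in 1B (85.7%). In the macaque, endothelial-like cells stood at 27.6% and 41.5% in the libraries of rhesus 2.

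GATA4, a zinc-finger factor of gonadal somatic cells, was highest in Sertoli-like cells of the baboon, with lower values in stroma-like cells. It is on chromosome 8 in both species (7242026 to 7302948 in the baboon). GATA4 was at 298, 292 and 258 CPM in Sertoli-like cells of libraries 1A, 1B and 2 and at 165, 155 and 128 in stroma-like cells. The classes did not overlap, at 277 ± 26.7 and 144 ± 23.8 (SD, n = 2 animals), and both stood above germ-like (35.2, 27.8 and 42.2) and endothelial-like cells (17.5, 26.9 and 32.6). Macrophage-like cells (90.6 to 165) overlapped stroma-like cells, while pericyte-like (74.1 to 127) and peritubular myoid-like cells (37.0 to 109) lay below them. Free RNA held 209, 150 and 191, above the stroma-like level in libraries 1A and 2. The log2 difference of GATA4 between Sertoli-like and stroma-like cells was 0.91 (SE 0.41, adjusted p = 0.156). With the animal as a block it was 0.92 (adjusted p = 0.000249), and without marked doublets 1.13 (adjusted p = 0.0416). GATA4 was higher in Sertoli-like cells by 3.32 than in endothelial-like cells (SE 0.49, adjusted p = 8.94e-05) and by 3.03 than in germ-like cells (SE 0.46, adjusted p = 9.8e-05).

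GATA6, the close relative of GATA4 (chromosome 19, 14341676 to 14374562 in the baboon), was lower in stroma-like cells. Baboon Sertoli-like cells held 51.0, 49.6 and 46.8 CPM of GATA6, and stroma-like cells 15.7, 9.22 and 15.1. No other class reached the Sertoli-like range, although lymphoid-like cells of library 2 held 41.3 and free RNA of library 1B held 88.6 on 16 UMIs. GATA6 was higher in Sertoli-like cells by 1.75 on the log2 scale than in stroma-like cells (SE 0.44, adjusted p = 0.00974), by 1.61 than in endothelial-like (adjusted p = 0.0317) and by 2.17 than in germ-like cells (adjusted p = 0.00229).

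Both GATA genes were low in the macaque, with 197 UMIs of GATA4 and 25 of GATA6 in all Sertoli-like cells. GATA4 was at 4.23, 27.4 and 23.4 CPM in Sertoli-like cells of libraries 1, 2A and 2B and at 2.74, 3.22 and 3.81 in stroma-like cells. GATA4 in Sertoli-like cells of rhesus 2 was 6.03 times that of rhesus 1, and germ-like cells of rhesus 1 held more (10.7) than its Sertoli-like cells. Free RNA held 3.18, 6.79 and 10.7 CPM of GATA4, above the stroma-like level of every library, and its part in the class levels was not tested. Without a filter on low counts the log2 difference of GATA4 between Sertoli-like and stroma-like cells was 2.01 (adjusted p = 0.0374). By animal, the fold was 1.54 in rhesus 1 and 7.28 in rhesus 2. GATA6 was at 0.976, 2.60 and 3.08 CPM in Sertoli-like cells and at 0.706, 5.13 and 2.55 in Leydig-like cells, which overlap.

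**Figure D3:**
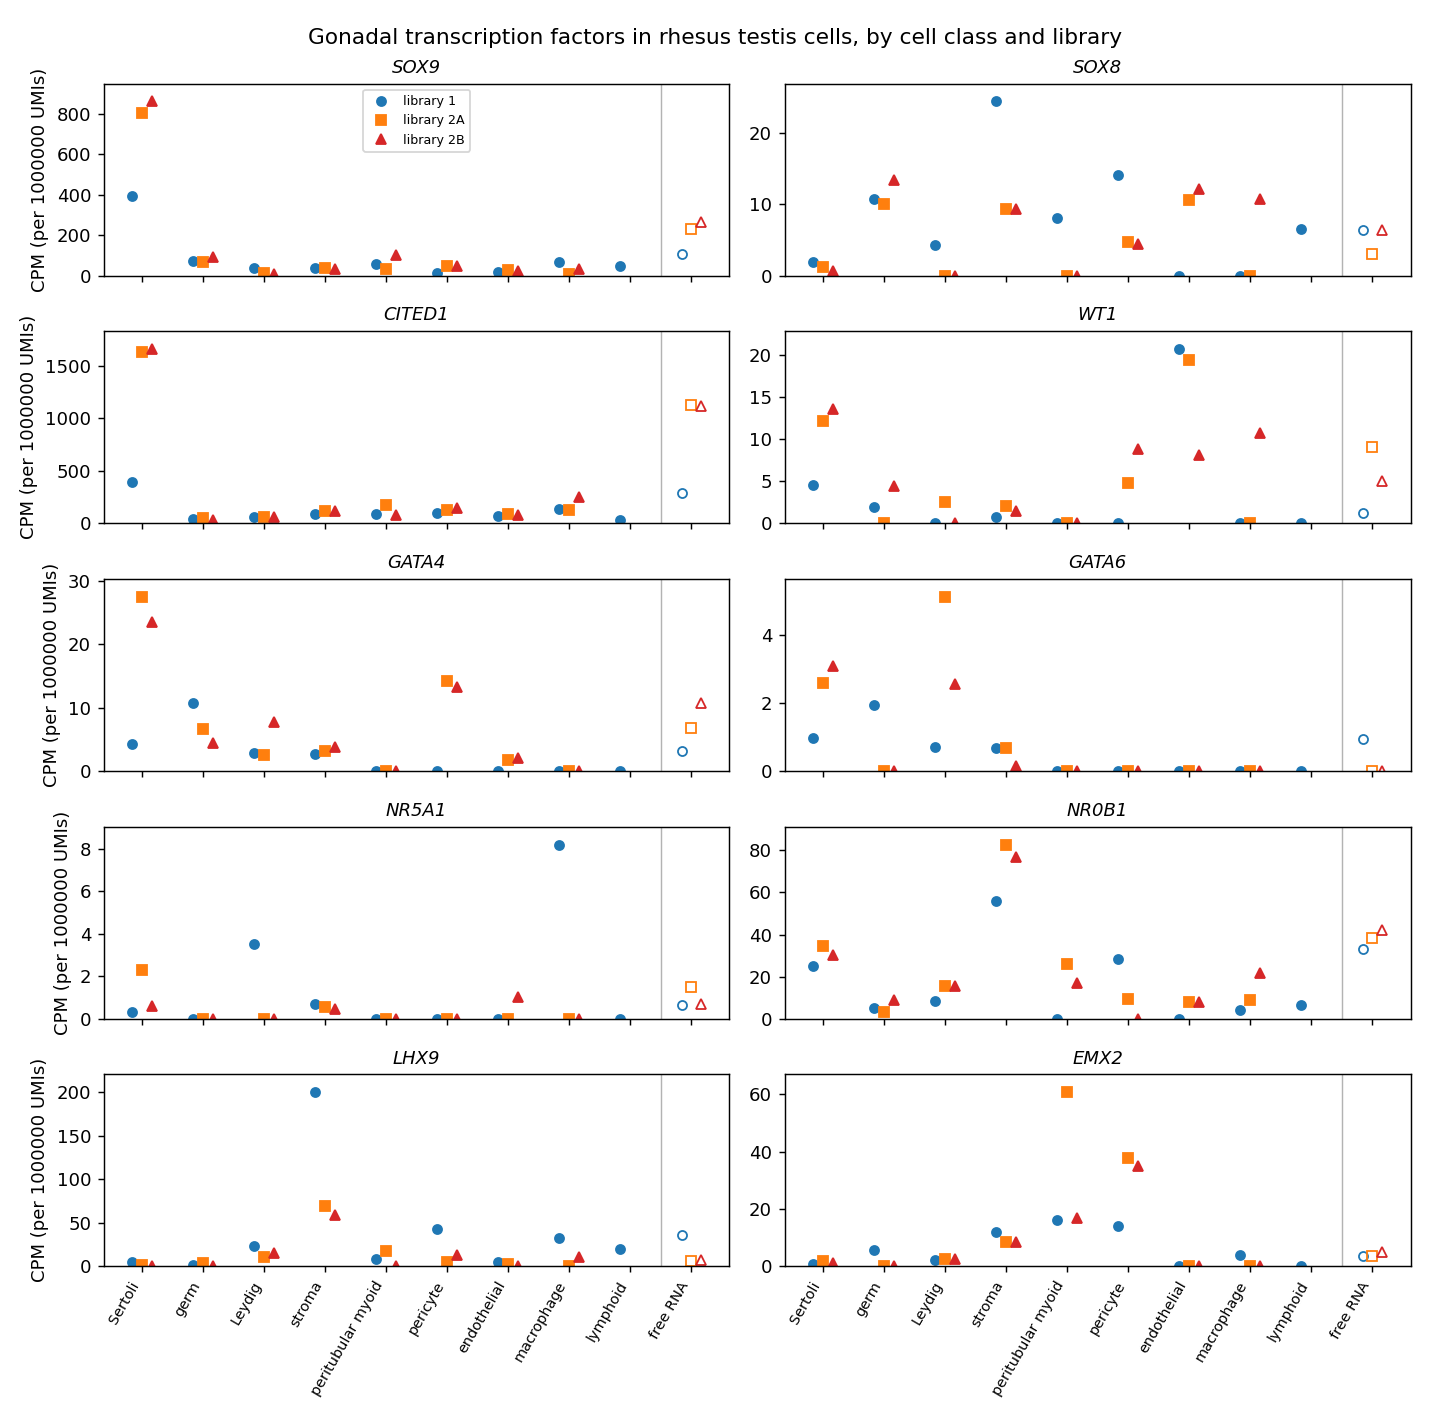
CPM of each gene (vertical axes, linear, 1 panel per gene) in each rhesus cell class and in free RNA (horizontal axis), with 1 point per library; lymphoid-like cells had enough cells in library 1 only. SOX9 and CITED1 were highest in Sertoli-like cells and higher in libraries 2A and 2B than in library 1, while LHX9 was highest in stroma-like cells and higher in library 1 (199.7) than in 2A and 2B (68.9 and 58.8).

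NR5A1, the nuclear receptor that turns on steroid-producing enzymes and AMH, was at higher values in Sertoli-like than in stroma-like cells of the baboon, a difference that did not pass the test. It lies on chromosome 13 (93867635 to 93894215) in the baboon. NR5A1 was at 47.8, 45.3 and 63.4 CPM in Sertoli-like cells of libraries 1A, 1B and 2, at 24.1, 22.5 and 33.9 in stroma-like cells and at 7.33, 6.17 and 9.29 in germ-like cells. Sertoli-like and stroma-like values did not overlap, and the stroma-like level was at that of endothelial-like cells (31.5, 26.9 and 17.0). Pericyte-like cells held 46.7, 66.9 and 29.6, on 7, 8 and 6 UMIs, and overlapped the Sertoli-like range. Free RNA held 54.5, 44.3 and 86.6. NR5A1 was higher in Sertoli-like than in germ-like cells by 2.88 on the log2 scale (SE 0.50, adjusted p = 0.000324), and differed from stroma-like cells by 0.90 (SE 0.41, adjusted p = 0.16; with the animal as a block adjusted p = 0.000549). Rhesus NR5A1 was at most 2.31 CPM in Sertoli-like cells. Leydig-like cells, which need NR5A1 for steroid synthesis, held 3.53 in library 1 and 0 in libraries 2A and 2B, so no order of classes can be read from so few UMIs.

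NR0B1, the X-linked partner that represses NR5A1, was at higher values in stroma-like than in Sertoli-like cells of both species. In the baboon (115139520 to 115145855) it was at 38.4, 34.4 and 56.0 CPM in Sertoli-like cells of libraries 1A, 1B and 2 and at 70.5, 70.7 and 92.3 in stroma-like cells. Rhesus NR0B1 (30168074 to 30173862) stood at 24.9, 34.4 and 30.5 in the Sertoli-like class and at 55.9, 82.8 and 76.8 in the stroma-like class of libraries 1, 2A and 2B. This held in all 6 libraries, by 1.91 and 1.65 times in baboons 1 and 2 and 2.25 and 2.46 times in rhesus 1 and 2. The log2 difference between Sertoli-like and stroma-like cells was -0.85 in the baboon (SE 0.49, adjusted p = 0.3) and -1.36 in the macaque (SE 0.51, adjusted p = 0.0898). With the animal as a block it passed the threshold in both (adjusted p = 0.000586 and 0.00785).

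In each library every other class held less NR0B1 than stroma-like cells. Free RNA held 41.2, 38.8 and 65.0 CPM in the baboon and 33.1, 38.5 and 42.1 in the macaque. These values were above the Sertoli-like and below the stroma-like level of every library. What part of the class levels free RNA made was not tested. Germ-like cells held 1.47, 18.5 and 10.1 CPM in the baboon and 4.86, 3.33 and 8.92 in the macaque, and NR0B1 was higher in Sertoli-like than in germ-like cells by 2.55 (SE 0.61, adjusted p = 0.0036) and 2.45 on the log2 scale (SE 0.70, adjusted p = 0.0145). Against endothelial-like cells the difference was 2.40 in the baboon (SE 0.67, adjusted p = 0.0154) and 1.98 in the macaque (SE 0.67, adjusted p = 0.054). The rhesus value passed the threshold with the animal as a block (adjusted p = 0.00694). The NR0B1 UMIs of endothelial-like cells, 11 in the baboon and 17 in the macaque, all came from animal 2 of each species. With none in animal 1, the endothelial-like side of these folds rests on animal 2 (15.6 and 8.0 CPM). In rhesus Leydig-like cells NR0B1 was at 8.48, 15.4 and 15.3 CPM, below the stroma-like level of every library. The difference from stroma-like cells was -2.12 (SE 0.59, adjusted p = 0.0843; with the animal as a block adjusted p = 0.00508).

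LHX9, a LIM homeodomain factor of the early gonad, marked stroma-like cells. In the baboon (chromosome 1, 163851269 to 163868970) it was at 234, 249 and 166 CPM in stroma-like cells of libraries 1A, 1B and 2 and at 0.819, 1.30 and 2.01 in Sertoli-like cells. Rhesus LHX9 (chromosome 1, 55339622 to 55358001) was at 199.7, 68.9 and 58.8 in stroma-like cells of libraries 1, 2A and 2B and at 5.20, 1.73 and 0.924 in Sertoli-like cells. Stroma-like cells stood above every other class in each library, followed by pericyte-like cells of rhesus 1 (42.4) and macrophage-like cells of rhesus 1 (32.8). Free RNA held 18.2, 49.8 and 21.7 in the baboon and 35.7, 6.03 and 7.84 in the macaque, more than Sertoli-like cells in every library. LHX9 was lower in Sertoli-like than in stroma-like cells by a log2 difference of -7.10 in the baboon (SE 0.60, adjusted p = 1.9e-06) and -5.39 in the macaque (SE 0.79, adjusted p = 0.000314). From rhesus Leydig-like cells (23.3, 10.3 and 15.3) the stroma-like level stood apart by a fitted -2.42 for Leydig-like against stroma-like cells (SE 0.72, adjusted p = 0.109; with the animal as a block adjusted p = 0.000318). Stroma-like cells of rhesus 1 had 3.12 times the LHX9 of rhesus 2.

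EMX2, a homeodomain factor of the urogenital ridge, was at its highest values in peritubular myoid-like and pericyte-like cells. In the baboon (chromosome 11, 15697514 to 15704678) peritubular myoid-like cells held 62.5, 185 and 91.9 CPM in libraries 1A, 1B and 2, pericyte-like cells 53.3, 16.7 and 4.94 and stroma-like cells 15.1, 18.4 and 8.87. Sertoli-like cells held 0.341, 0.355 and 0.296, on 5, 3 and 9 UMIs, and endothelial-like cells none. Of rhesus EMX2 (chromosome 9, 118024930 to 118031427), peritubular myoid-like cells held 16.2, 60.8 and 16.9, pericyte-like cells 14.1, 38.0 and 35.2, stroma-like cells 11.9, 8.57 and 8.65 and Sertoli-like cells 0.976, 2.02 and 1.23. The order of myoid-like and pericyte-like cells differed between libraries, while both were above stroma-like cells in all libraries except for pericyte-like cells of libraries 1B and 2 of the baboon. Over all libraries of a species these levels rested on 17 UMIs in myoid-like and 11 in pericyte-like cells of the baboon. In the macaque they rested on 11 and 17, so single libraries hold few. These 2 small classes depended on how cells were grouped, since only 58.0% of baboon and 13.0% of rhesus myoid-like cells, and 24.1% and 84.8% of pericyte-like cells, fell in the same class by clusters. By clusters, EMX2 was at 90.0 CPM in baboon and 34.8 in rhesus myoid-like cells (19 and 2 UMIs, all of animal 1) and at 43.4 and 37.7 in pericyte-like cells (9 and 22 UMIs, all of animal 2). EMX2 was lower in Sertoli-like than in stroma-like cells by a log2 difference of -5.20 in the baboon (SE 0.73, adjusted p = 0.000238) and -3.08 in the macaque (SE 0.79, adjusted p = 0.0155). Free RNA held 10.3, 11.1 and 7.22 CPM of EMX2 in the baboon, on 17, 2 and 2 UMIs, and 3.5, 3.77 and 4.99 in the macaque. These values were below the stroma-like and above the Sertoli-like level of every library. What part of the class levels of EMX2 free RNA made was not tested.

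The sequences upstream of LHX9 and EMX2 are shown because both genes were lower in Sertoli-like than in stroma-like cells in both species. They are the 250 bases before the RefSeq gene start in Mmul_10, all on the plus strand, at chr1:55339372-55339621 and chr9:118024680-118024929. Capitals mark a match to a searched motif on either strand.
LHX9: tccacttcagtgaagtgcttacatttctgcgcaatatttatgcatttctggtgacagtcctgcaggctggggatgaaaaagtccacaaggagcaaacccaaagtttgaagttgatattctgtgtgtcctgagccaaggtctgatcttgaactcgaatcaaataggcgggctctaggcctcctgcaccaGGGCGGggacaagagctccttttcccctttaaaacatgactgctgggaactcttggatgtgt
EMX2: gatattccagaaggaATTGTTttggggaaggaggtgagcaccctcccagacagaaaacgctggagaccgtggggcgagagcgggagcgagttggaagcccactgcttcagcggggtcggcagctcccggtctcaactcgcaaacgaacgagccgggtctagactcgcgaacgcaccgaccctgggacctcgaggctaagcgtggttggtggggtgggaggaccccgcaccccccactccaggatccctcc
The LHX9 window held 1 GC box (GGGCGG or its reverse complement), a motif in 43.7% of the 20782 rhesus windows of this length, and the EMX2 window held 1 SOX-type motif (AACAAT, here on the minus strand), found in 7.82% of windows. The LHX9 window was 48.0% G and C and that of EMX2 63.6%. Neither window held the GATA motif GATAA (19.5% of windows), the NR5A motif CAAGGTCA (1.19%) or the LIM homeodomain motif TAATTA (4.4%). These matches describe letters and not bound sites.

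The genes were also counted together against all genes tested. In the baboon, 8 of the 9 passed the filter on low counts (CITED1 did not), and 3 were called higher in Sertoli-like than in stroma-like cells (SOX9, WT1 and GATA6) and 2 lower (LHX9 and EMX2). Of all 9435 baboon genes tested, 6.83% were called higher and 11.2% lower. Of the rhesus genes 5 of 10 passed the filter (SOX9, CITED1, NR0B1, LHX9 and EMX2), and 2 were called higher (SOX9 and CITED1) and 2 lower (LHX9 and EMX2), where 7.01% of all 9361 genes were higher and 8.21% lower. With the animal as a block all 8 baboon genes were called, 5 higher and 3 lower, while all genes gave 23.2% higher and 20.2% lower.

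Against endothelial-like cells, 4 of 8 baboon genes were called higher (SOX9, GATA4, GATA6 and NR0B1) and none lower, where all genes gave 9.36% and 13.8%. Of these, NR0B1 had endothelial-like UMIs in baboon 2 alone. EMX2 had no UMI in endothelial-like cells of either species, which leaves its fold there without meaning. In the macaque 2 of 5 were higher (SOX9 by 4.62, SE 0.57, adjusted p = 6.35e-05, and CITED1 by 3.53, SE 0.48, adjusted p = 0.000116) and none lower, where all genes gave 7.01% and 10.2%. Against germ-like cells, 6 of 8 baboon genes were higher and 1, EMX2, was lower (-4.33, SE 0.79, adjusted p = 0.000857), in a comparison that called 18.0% of all genes higher and 25.9% lower. Baboon germ-like cells held 17 UMIs of EMX2 (7.76 CPM), a level within the range of free RNA. Rhesus SOX9 (3.01, SE 0.50, adjusted p = 0.000622), CITED1 (4.43, SE 0.49, adjusted p = 5.67e-05) and NR0B1 were higher than in germ-like cells and none of the 5 lower, where all genes gave 13.4% and 19.0%.

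Against the mean of all other classes, 6 of 8 baboon genes were higher in Sertoli-like cells and none lower, where 12.6% of all genes were higher and 4.72% lower. SOX9 led with 2.63 on the log2 scale (SE 0.30, adjusted p = 4.42e-05), followed by GATA4 at 2.04 (SE 0.28), GATA6 at 1.92 (SE 0.36), NR5A1 at 1.63 (SE 0.35) and WT1 at 1.45 (SE 0.31, adjusted p = 0.00373). NR0B1 was called too and is among the 6, but a class without an NR0B1 UMI leaves its fold without meaning. The same holds for LHX9 and EMX2, which had no UMI in 2 and 3 of the 8 baboon classes. It holds for rhesus EMX2 as well, without a UMI in 1 class. That none of these genes was called lower therefore carries no meaning. Rhesus SOX9 (3.69, SE 0.29, adjusted p = 4.64e-06) and CITED1 (3.23, SE 0.26, adjusted p = 4.64e-06) were higher and none of the 5 was lower, where all genes gave 9.11% and 5.84%. Between rhesus Leydig-like and stroma-like cells 0 of 5 genes were called by edgeR and 0 by the DESeq2 Wald test. All genes gave 1.16% higher and 0.94% lower in edgeR and 1.84% and 1.35% in DESeq2. At an unadjusted p under 0.05 there were 2 in edgeR (LHX9 and NR0B1, both lower in Leydig-like cells), where all genes gave 6.93% higher and 6.01% lower. The same 2 were called with the animal as a block, where all genes gave 4.24% higher and 3.32% lower.

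**Figure D4:**
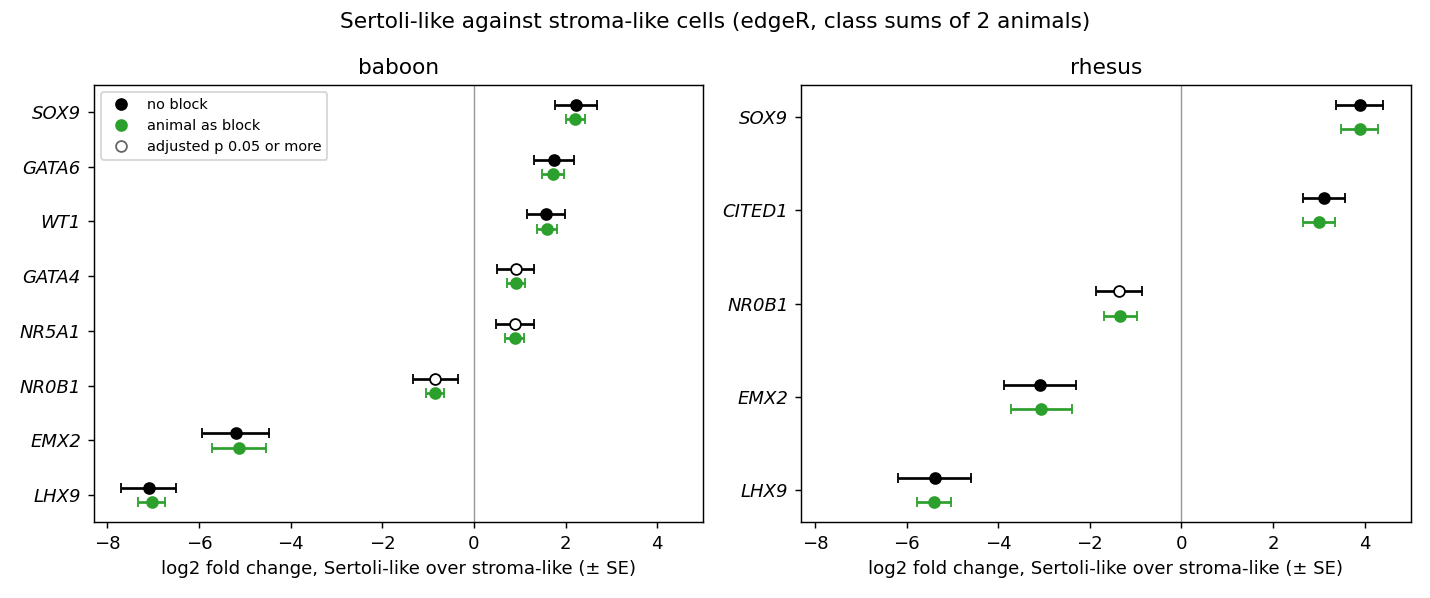
Fitted log2 differences of Sertoli-like from stroma-like cells with their standard errors, for the genes tested in each species; filled points have an adjusted p under 0.05. SOX9 stood at 2.24 in the baboon and 3.89 in the macaque, and LHX9 at -7.10 and -5.39.

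Shares of single cells with a UMI were compared after each cell had been thinned to 1000 UMIs, which left out shallower cells (271 of the baboon Sertoli-like cells and 459 of the rhesus ones). In the baboon, SOX9 was seen in 28.9% and 22.2% of Sertoli-like cells of animals 1 and 2, in 4.98% and 2.92% of stroma-like cells and in 8.57% and 5.94% of germ-like cells. WT1 was seen in 16.2% and 13.0% of Sertoli-like, 15.1% and 14.3% of endothelial-like and 4.67% and 2.68% of stroma-like cells. As germ-like cells had a WT1 UMI in 7.62% and 6.93% of cells and a SOX9 UMI more often than stroma-like cells, the stroma-like shares of both genes did not exceed those of a class taken to lack them and are not read as expression. GATA4 in stroma-like cells (13.3% and 10.6%) was above its shares in endothelial-like cells (1.59% and 2.38%) and below those in Sertoli-like cells (25.0% and 22.4%). LHX9 was seen in 19.2% and 17.7% of stroma-like and in 0.0784% and 0.21% of Sertoli-like cells.

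Rhesus SOX9 was seen in 21.2% and 51.3% of thinned Sertoli-like cells of animals 1 and 2, and CITED1 in 29.1% and 72.5%. In stroma-like cells CITED1 was seen in 7.58% and 9.37% and in endothelial-like cells in 4.76% and 7.90%. Over both animals its share outside Sertoli-like cells ran from 6.06% in lymphoid-like to 17.0% in macrophage-like cells (exact 95% interval 11.2% to 24.3%), and the part of free RNA in these shares was not tested. NR0B1 was seen in 5.22% and 7.57% of stroma-like and 2.56% and 3.16% of Sertoli-like cells. LHX9 was seen in 18.5% and 6.13% of stroma-like cells. Without thinning, SOX9 was seen in 38.2% and 65.8% of rhesus Sertoli-like cells (median 1818.5 and 1820.0 UMIs) and in 5.04% and 3.84% of stroma-like cells (1560 and 1386), and in the baboon in 53.3% and 71.6% (median 2400 and 6401 UMIs) and 7.75% and 7.68% (1272.5 and 1797). The order of the 2 baboons in Sertoli-like cells was thus the opposite of that after thinning.

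The cells were also counted by how many of the genes they showed at this depth. In the baboon, 59.5% and 54.4% of thinned Sertoli-like cells of animals 1 and 2 held a UMI of at least 1 of the 9 genes, 19.6% and 16.2% of at least 2, and 3.35% and 3.11% of at least 3. Stroma-like cells held at least 1 in 43.5% and 39.6%, and germ-like cells in 21.9% and 17.8%. In the macaque 45.4% and 86.3% of Sertoli-like cells of animals 1 and 2 held at least 1 of the 10 genes, and 8.27% and 41.8% at least 2. Of stroma-like cells 33.5% and 24.8% held at least 1. Of 5222 thinned rhesus Sertoli-like cells, 2768 held CITED1, 1973 SOX9 and 151 NR0B1, the next most frequent gene. The share with any of the genes thus mostly restates SOX9 and CITED1, and its difference between the animals is no separate observation. SOX9 and WT1 were found together in 472 of 10510 baboon Sertoli-like cells, and SOX9 and GATA4 in 740, beside the 438 and 691 that the separate shares of the genes would give.

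**Figure D5:**
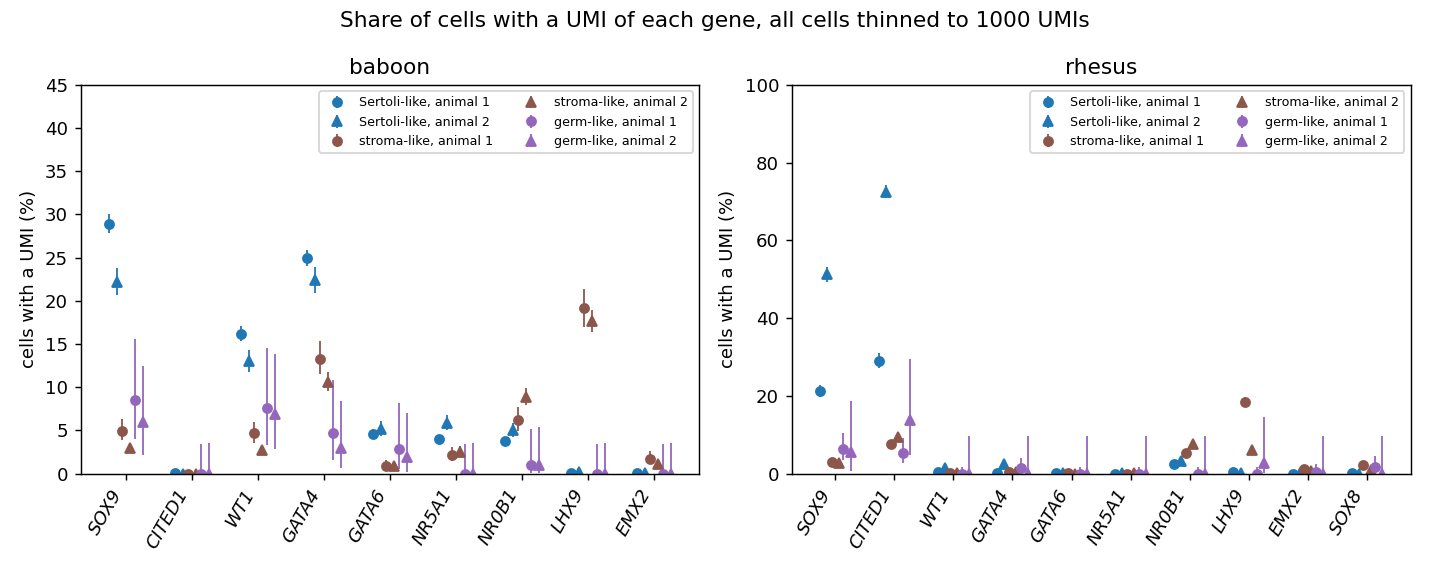
Share of cells with a UMI of each gene (vertical axis, percent; horizontal axis, gene) after thinning to 1000 UMIs per cell, for Sertoli-like, stroma-like and germ-like cells of each animal with exact 95% intervals. In the macaque CITED1 was seen in 29.1% and 72.5% of Sertoli-like cells of animals 1 and 2, and in the baboon LHX9 in 19.2% and 17.7% of stroma-like cells.

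Sertoli-like cells with UMIs of at least 2 mitotic genes were set beside those with none, to describe the genes in dividing cells. There were 38 and 171 such cells in baboons 1 and 2 (0.482% and 5.91% of the class), and 9 and 26 in rhesus 1 and 2. SOX9 was at 365 CPM with and 385 without mitotic UMIs in baboon 1, and the log2 ratio was -0.08 in baboon 1 and 0.17 in baboon 2. WT1 had log2 ratios of 0.27 and 0.15, GATA4 of 0.23 and 0.07, and GATA6 of 1.10 and 0.15, the first on 24 UMIs in mitotic cells. Cells with mitotic UMIs were far deeper (a median of 21548 UMIs against 5085 in baboon 2), which moved with this split, and its part was not tested. Rhesus SOX9 had log2 ratios of 1.10 and 0.12 on 65 and 99 UMIs in mitotic cells, and CITED1 of -0.04 and -0.40 on 33 and 140 UMIs.

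Other regulators of the gonad and known Sertoli genes were counted from lists in the same comparison of Sertoli-like with stroma-like cells. Of 30 regulators, 25 were tested in the baboon, and 3 were higher (DMRT1, CITED4 and SOX4) and 8 lower in Sertoli-like cells. All genes gave 6.83% higher and 11.2% lower. The median log2 difference of the regulators was -0.26 beside 0.08 over all genes. Among the largest differences were those of TCF21 (-7.16, adjusted p = 9.57e-07), NR2F1 (-6.67, adjusted p = 8.46e-07) and SOX5 (-6.64, adjusted p = 1.6e-06), of which TCF21 and NR2F1 are factors of interstitial cells. Of the regulators 16 were tested in the macaque, and 0 were higher and 4 lower, where all genes gave 7.01% and 8.21%. The 4 were NR2F2 (-4.90, adjusted p = 1.09e-05), NR2F1 (-4.75, adjusted p = 1.66e-05), TCF21 (-4.47, adjusted p = 0.00012) and KLF4 (-1.51, adjusted p = 0.0332). The median over the 16 was -0.51 beside 0.02 over all genes.

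Of 10 genes of Sertoli differentiation, 6 were tested in each species, and 4 were higher and 0 lower in Sertoli-like cells of each, where all genes gave 6.83% and 11.2% in the baboon and 7.01% and 8.21% in the macaque. In the baboon these were AMHR2, the receptor of anti-Müllerian hormone (2.01, adjusted p = 0.00377), the inhibin subunit INHA (1.94, adjusted p = 0.0118), the prostaglandin D synthase PTGDS (1.79, adjusted p = 0.0157) and the lipoprotein receptor SCARB1 (1.65, adjusted p = 0.0101). In the macaque they were AMH (3.30, adjusted p = 0.023), the follicle-stimulating hormone receptor FSHR (3.12, adjusted p = 0.0164), INHA (2.86, adjusted p = 0.0324) and AMHR2 (2.29, adjusted p = 0.00847). The median log2 difference of the tested genes of this list was 1.86 in the baboon and 2.62 in the macaque, beside 0.08 and 0.02 over all genes. TCF21 and NR2F1 were also lower in rhesus Leydig-like than in stroma-like cells (-2.69, adjusted p = 0.0145, and -2.68, adjusted p = 0.00683).

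Genes with the most similar pattern were ranked by Pearson's r of log2 levels over the 16 class sums of a species, which share libraries and depth. Nearest to SOX9 were GDF1 (r = 0.975), TCEAL5 (0.924) and FDXR (0.913) in the baboon and SCG5 (0.959), PLEKHB1 (0.941) and DSC2 (0.939) in the macaque. Nearest to WT1 were LIMCH1 (0.957), DSTYK (0.931) and NSMAF (0.913) in the baboon, and EXOC5 (0.855) and LRRC1 (0.853) in the macaque. Nearest to GATA4 were TCEA3 (0.966), CERS4 (0.955) and ALDH1A1 (0.947) in the baboon, and HHAT (0.897), DUS3L (0.867) and ELOVL2 (0.86) in the macaque. Nearest to LHX9 were CNTNAP4 (0.926), FMO1 (0.926) and MME (0.917) in the baboon, and C1S (0.902), PDGFRL (0.865) and C1R (0.852) in the macaque. For NR5A1 the baboon gave PLCD3 (0.898), PRXL2A (0.895) and N4BP2L1 (0.884), and the rhesus level was too low to rank genes. The ranks came from 14973 baboon and 11629 rhesus genes, and with so many genes and 16 points a high r is no sign of a shared function.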

How the data were processed

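Testis cells of 4 animals in 6 libraries were measured by 10x Genomics 3′ single-cell RNA sequencing. The authors made UMI counts with Cell Ranger 3.1.0 (genome builds Panubis1.0 and Mmul_10), and the deposited files hold these raw counts for every barcode the chemistry allows, with no cells called and nothing normalized. The submitters' processing notes also name Seurat 3.2.3, with which the authors normalized and clustered the cells, and mouse and human builds for comparison data of those species, neither of them used here. Libraries held 16875294 to 49803025 UMIs.

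Cells were called again in Python 3.11.15 (with scipy 1.17.1 and numpy 2.4.6): a UMI cutoff of percentile 99 of the top 5000 barcodes divided by 10, then, from 500 UMIs, barcodes whose profile differed from free RNA (10000 simulations, adjusted p at most 0.01), each with at least 200 genes. Doublets were marked at a rate of 0.8% per 1000 cells and kept. Cells joined a class from marker UMIs (at least 2 own UMIs, posterior at least 0.95) by a profile learned from seed cells, and 15.0% of baboon and 8.96% of rhesus cells lay near that limit. No member gene was on a marker list, and classes needed 20 seeds.

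Counts were summed per class and animal (at least 10 cells), giving 16 sums per species with 8 residual degrees of freedom, and tested with edgeR 4.0.16 quasi-likelihood (R 4.3.3; TMM; filter on low counts; Benjamini-Hochberg over all genes tested; called under 0.05, both directions). The 5 contrasts were fitted without an animal block. Sums of the same animal share its libraries, which pairs them: their deviations from class means correlated at a median of 0.287 in the baboon (lowest 0.0336) and 0.271 in the macaque (lowest 0.119). Between Sertoli-like and stroma-like cells the pairing was stronger, with a correlation of 0.857 in the baboon and 0.56 in the macaque. P-values of the main fit rest on the spread between 2 animals within a class, pooled over the 8 classes tested per species. They take all sums as independent, although sums of the same animal are paired as given above. In the baboon this spread also holds the change of chemistry version. Exact intervals, at 95%, and counts cover counting error only. Alternatives were DESeq2 1.42.0 (size factors and Wald test), no filter, the animal as block, libraries as samples, the UMI cutoff alone, no marked doublets, seed cells only, clusters (scanpy 1.11.5) and leaving out each animal. The naming of clusters was restricted, after a first output had been seen, to classes with enough seed cells. The scripts were tested on simulated data.

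All member genes are named. Of the regulator and Sertoli gene lists the 4 called genes with the largest log2 difference were named, beside DMRT1, CITED4 and SOX4, TCF21 and NR2F1 in Leydig-like cells, which were named after their values had been seen. Of these, 1 gene that the rule named is not reported here. The similar genes were the 3 of highest r on no marker list. The members and lists were chosen with earlier results of these data known. Promoters and coordinates came from RefSeq Mmul_10 and, for baboon positions, the RefSeq gene table of Panubis1.0. Glia and erythroid lists gave 2 to 3 and 1 to 2 seed cells and no class.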

Additional observations from a re-analysis of the deposited data

How the results depend on the processing

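Of the fitted log2 differences of the members, 475 values under another setting counted as unchanged. Those with a test kept their direction and their side of the threshold. Those without a test kept their direction and moved by no more than their standard error in the reported fit. Of the rest, 38 passed the threshold newly and 9 no longer passed it. Another 24 values without a test moved by more than that standard error, and 8 turned. The turned ones were all differences that had not been called: WT1 against endothelial-like cells in the baboon (-0.24 without baboon 1, 0.55 without baboon 2), LHX9 against germ-like cells in the baboon (0.16 without baboon 2, -1.44 without baboon 1), LHX9 against endothelial-like cells in the macaque (-1.12 with seed cells only and -0.37 and 0.11 without rhesus 1 and 2), LHX9 and EMX2 against germ-like cells in the macaque (-0.63 and 5.21 without rhesus 1, 2.53 and -2.35 without rhesus 2), and SOX9 between Leydig-like and stroma-like cells (0.27 without marked doublets and 0.36 without rhesus 2, -0.998 without rhesus 1). The 9 calls lost, all in the baboon, were those of SOX9, WT1 and GATA6 against stroma-like cells under the UMI cutoff alone, NR0B1 against endothelial-like cells and WT1 against all other classes under that cutoff and under clusters, and SOX9 and WT1 against germ-like cells under clusters. NR0B1 against all other baboon classes, whose fold has no meaning and was not counted here, was also not called under clusters (adjusted p = 0.222). The cause was not tested.

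The number of called genes depended on the fit. With the animal as replicate block, it rose in the baboon to 4091 against stroma-like cells (1699 without the block). Against all other classes it rose to 3217 (1630) and against endothelial-like cells to 3807 (2183). In the macaque these counts were 2632 (1425), 2272 (1400) and 2447 (1610), and 708 (197) between Leydig-like and stroma-like cells. The members called rose to 8 of 8 in the baboon against stroma-like cells, where 43.4% of all genes were called. Rhesus members rose to 4 of 5 against all other classes, where all genes gave 24.3%. Between Leydig-like and stroma-like cells they rose to 2 of 5, where all genes gave 7.56%. With no filter on low counts the genes called were 3033 (stroma-like) and 9170 (germ-like) in the baboon and 2296 (stroma-like) and 558 (Leydig-like) in the macaque. Of the 10 rhesus members then tested, 8, 7 and 5 were called against stroma-like, all other and endothelial-like cells and 2 for Leydig-like cells. All genes gave 12.4%, 11%, 11.7% and 3%. Some rhesus classes held no UMI of GATA4, GATA6, WT1, NR5A1 or EMX2, which leaves their folds against all other classes without meaning. With libraries as samples, which counts libraries of 1 animal apart, rhesus counts were 2607, 2353, 2643 and 908. In that setting 4 of 5 members were called against all other classes and 2 of 5 for Leydig-like cells, where all genes gave 32.8% and 12.6%. The DESeq2 Wald test called 3055 genes against all other baboon classes and 298 for rhesus Leydig-like cells. The UMI cutoff alone left 644 genes (5.39% of all tested) and 2 of 8 members called in the baboon against stroma-like cells. Clusters gave 4 of 8 rhesus members against all other classes and 4 of 8 against endothelial-like cells, where all genes gave 13.4% and 14.6%. For Leydig-like cells, 2 of 6 members were called without marked doublets and 2 of 4 with seed cells only. All genes gave 2.96% and 3.17% there. Leaving out an animal left 1 sum per class and no test.

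With 2 animals per species, of which baboon 2 had another chemistry version, animal and chemistry cannot be told apart in the baboon. WT1, GATA4, GATA6, NR5A1 and SOX8 in the macaque and CITED1 in the baboon had too few UMIs for the main test, so their order across classes rests on few UMIs. What part depth or the gene annotation had in these low counts was not tested. Classes of under 100 cells rest on few UMIs. Of the levels in Sertoli-like and stroma-like cells, 124 moved by no more than the SD of the 2 animals under another setting and 28 by more. Of the shares in these 2 classes, 150 moved by no more than that SD and 40 by more. The other classes were not counted. That SD is wide for some genes, such as CITED1 in rhesus Sertoli-like cells (885.6 around a mean of 1020 CPM).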
